A study of Mus musculus with 6 samples.

Results

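The 7 genes described here act in the repair of mispaired bases and of broken DNA: Msh3, Msh6 and Pms2 of mismatch repair, Brca1 and Brca2 of homologous recombination, and Atm and Trp53bp1 of the response to double-strand breaks. They were chosen by name, all 7 were listed in every library, and they are 7 of the 14455 gene symbols in the files. The libraries hold total RNA of LSK cells, the bone marrow fraction without lineage markers and with Sca-1 and Kit, which contains blood stem cells and early progenitors. The mice were C57BL/6, either WT or Setd2 KO. LSK cells were sorted 4 weeks (called young) or 8 months (called old) after pI-pC, a synthetic double-stranded RNA that induces interferon and, with it, the deletion of the conditional allele. All 4 groups carry this label, WT included, and the labels do not name the Cre driver or the number of mice per library. Each of the 4 groups had 1 library, so every difference is given without a replicate check and without a p-value.

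Mismatch repair begins when a MutS dimer binds a mispair: the dimer with Msh6 reads single mismatches and short loops, and the one with Msh3 reads longer loops. The MutL dimer that holds Pms2 then nicks the new strand. Setd2 places the trimethyl mark on lysine 36 of histone H3 (H3K36me3), which the PWWP domain of Msh6 binds, and the reader Psip1 links the same mark to homologous recombination. In homologous recombination Brca1 promotes the resection of a break and Brca2 loads the recombinase on the exposed strand. Atm is the kinase that signals the break, and 53BP1, the product of Trp53bp1, limits resection and favours end joining. The RNA data measure the supply of these transcripts, not the recruitment of the proteins.

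Values are scaled FPKM, meaning fragments per kilobase of transcript and per library total, multiplied by a factor per library so that the typical gene is equal across libraries. FPKM is a level per length, so genes can be set side by side. Differences are on the log2(scaled FPKM + 1) scale, where a low gene appears to change less than it does. Ratios carry a 95% interval for counting error alone, computed from the spacing of low values in each file at an assumed transcript length of 2 kb. The coding sequences of the 7 genes are longer than that, which would narrow the interval. At an FPKM of 5, such a transcript would hold 90.4 to 95.7 counted units in the young libraries and 179 to 181 in the old ones. Where 4 values follow each other, they are those of young WT and KO and then old WT and KO. In bulk RNA, fewer cells of a type and less RNA per cell cannot be told apart.

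Setd2 itself stood at 14.1 and 12.4 in young WT and KO and at 15.3 and 15.5 in old WT and KO. A gene-level value includes exons outside the deleted part, so it checks nothing about the labels. Of the markers that define the sort, Kit stood between 41.1 and 61.0 and Ly6a, which encodes Sca-1, between 3.17 and 8.80 over the libraries. All 15 stem and progenitor markers were listed in every library, with a sum between 245 and 295. Other markers differed between libraries: 20 of 20 erythroid genes were listed in each, with sums of 415, 904, 401 and 284. The 15 plasma cell markers summed to 83.4, 99.3, 2306 and 272 with Prdm1 and Tnfrsf17 not listed in either young library and Jchain, the joining chain of secreted antibodies, at 13.0, 19.7, 1891 and 141, and antigen receptor segments made up 26.8% of all FPKM in old WT against 4.67% in old KO. The 17 neutrophil markers summed to 947, 853, 1276 and 2327, and late granule genes such as Camp, Ltf and Ngp were not listed in the young libraries. Their part in the values below was not tested, and neither was that of the B cell or T and NK cell markers, of which at most 11 of 13 and 10 of 14 were listed.

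None of the 7 genes differed by 2-fold or by 1.5-fold between KO and WT at either age. Among all measured genes, 1.72% differed by 2-fold in young and 4.30% in old cells, and 7.77% and 12.0% by 1.5-fold. The count of 0 of 7 lies near these shares and shows nothing particular to the group. Their differences ran from -0.17 to 0.33 in young KO, with a median of -0.05, and from -0.18 to 0.18 in old KO, with a median of -0.11. The median over all measured genes was 0.00 at both ages, and the middle 95% ran from -0.67 to 0.71 in young and from -1.05 to 0.85 in old cells. Over the 4 libraries, the highest value of each gene was between 1.11 and 1.32 times its lowest, Msh6 having the smallest range and Msh3 the largest.

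**Figure D1:**
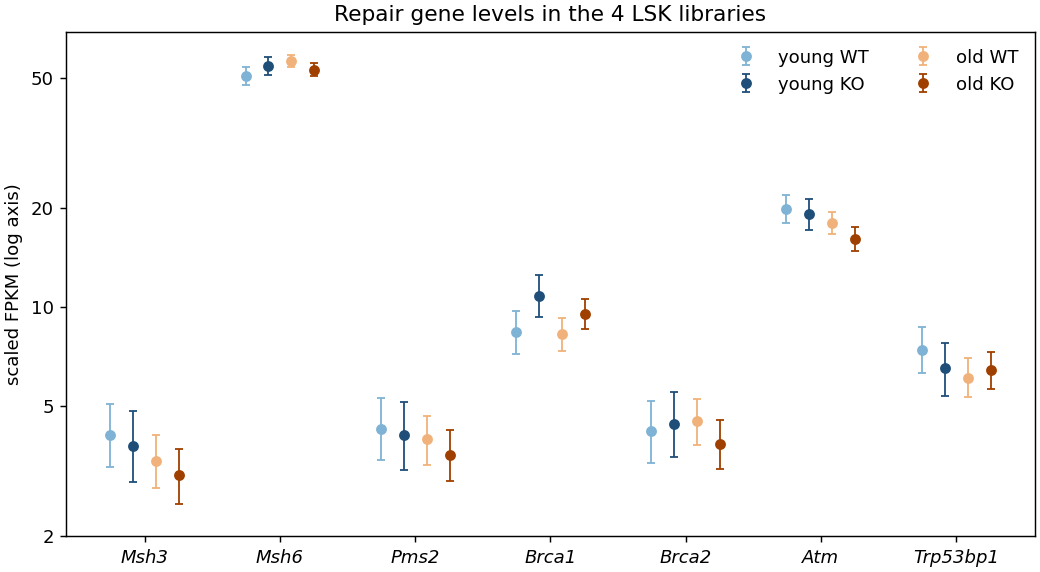
Scaled FPKM (log axis) of the 7 repair genes in each of the 4 libraries; bars are 95% counting intervals at an assumed transcript length of 2 kb. Msh6 lies near 50 in every library, Atm between 16.1 and 19.9, and Msh3, Pms2 and Brca2 between 3.07 and 4.48 with overlapping intervals.

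The order of the levels was nearly the same in every library. Msh6 was the highest, followed by Atm, Brca1 and Trp53bp1, and Msh3 was the lowest in all 4. Msh6 over Atm was 2.54 in young WT and 3.28 in old KO, with counting intervals well above 1. Brca1 and Trp53bp1 were neighbours whose interval included 1 in young WT (ratio 1.14, interval 0.904 to 1.42) and not in the other libraries. Among Pms2, Brca2 and Msh3, the interval of each neighbouring pair included 1 in every library. The highest and the lowest of these were not compared with each other, so the pairs do not show that they cannot be put in order.

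Among the mismatch recognition genes, Msh6 (ENSMUSG00000005370, chromosome 17, 87975050 to 87990883, mm10) was by far the more abundant. It stood at 50.7 and 54.4 in young WT and KO and at 56.4 and 53 in old WT and KO. The KO value was thus 1.07 times WT in young cells (interval 0.981 to 1.17) and 0.940 times in old cells (0.882 to 1.0). The signs differed between the ages, and without scaling the young difference of 0.10 became -0.02. The old interval excluded 1 under each of the 3 other scalings. The ratio was 0.937 without scaling (0.879 to 0.998) and 0.937 with upper-quartile scaling (0.880 to 0.999). It was 0.875 when rescaled to the library totals without antigen receptor segments and the predicted genes Gm26917 and Gm42418 (0.821 to 0.932). That rescaling also put the median of all genes at -0.09 in old KO against WT, where Msh6 was at -0.19.

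Msh3 (ENSMUSG00000014850, chromosome 13, 92211872 to 92355003) stood at 4.06 and 3.77 in young WT and KO and at 3.39 and 3.07 in old WT and KO. It was lower in KO at both ages, by -0.08 and -0.11 on the log2 scale. Both counting intervals at the assumed 2 kb included 1, at 0.662 to 1.29 in young and 0.687 to 1.18 in old cells. A longer transcript would narrow them. Msh6 exceeded Msh3 by 12.5, 14.4, 16.6 and 17.3 times. The binding partners given below, Bard1, Palb2, the Mre11a, Rad50 and Nbn set, Rif1, Rnf168 and Psip1, were picked from the lists after their values had been seen.

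Pms2 (ENSMUSG00000079109, chromosome 5, 143909964 to 143933968), the MutL subunit with the nicking activity, stood at 4.25 and 4.07 in young WT and KO and at 3.94 and 3.53 in old WT and KO. The difference from WT was -0.05 in young and -0.12 in old cells, both within counting error at the assumed 2 kb. The intervals ran from 0.686 to 1.31 in young and from 0.699 to 1.15 in old cells.

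Brca1 (ENSMUSG00000017146, chromosome 11, 101488764 to 101551955) was the only one of the 7 that was higher in KO at both ages. It stood at 8.40 and 10.8 in young WT and KO and at 8.26 and 9.52 in old WT and KO, so both KO libraries lay above both WT libraries. The young ratio of 1.29 had an interval of 1.04 to 1.59. Of the 7 genes, only this interval in either KO comparison did not include 1 with the scaling used here. Under other scalings this also held for Msh6 and Atm in old cells, as given with each gene. The share of all genes whose interval excluded 1 was not counted, so the interval does not set Brca1 apart from them. Without scaling the young ratio was 1.19 with an interval of 0.962 to 1.47. The old ratio was 1.15 (0.982 to 1.35). The differences of 0.33 and 0.18 kept their sign under every scaling tried. Being above 0 at both ages applied to 26.2% of all genes. Bard1, the obligate partner of Brca1 in its ubiquitin ligase, stood at 18.4, 17.6, 14.1 and 16.1, and was thus above Brca1 in all 4. The ratio of Brca1 to Bard1 was 0.457 and 0.615 in young and 0.584 and 0.591 in old WT and KO. The young KO library was also the one with the highest erythroid sum. Mki67, a marker of cycling cells, stood at 51.6 and 56.6 in young and at 81.8 and 92.9 in old WT and KO, higher in KO at both ages, and its part in the Brca1 values was not tested. The S phase list, at 39 of 39 measured, had a median of -0.01 in young and -0.10 in old KO, with 1 and 0 genes 1.5-fold higher and 0 and 2 lower. Pcna stood at 81.7, 83.1, 75 and 85.6.

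**Figure D2:**
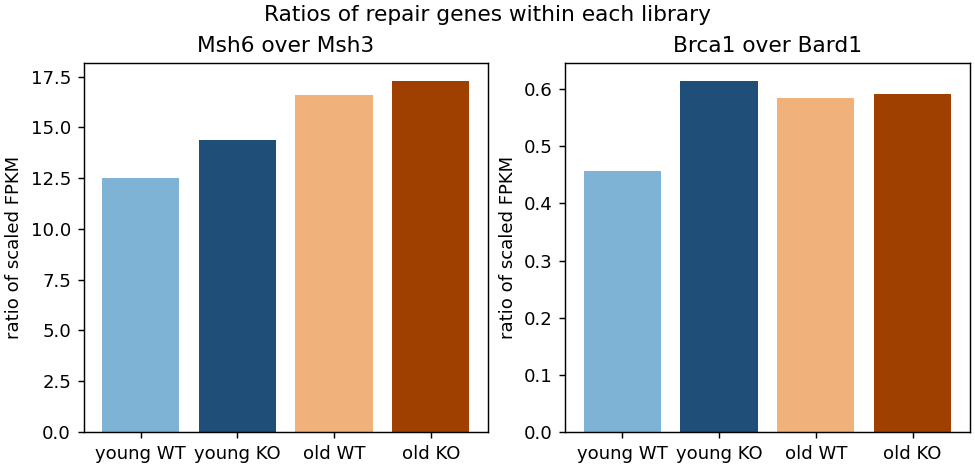
Ratio of scaled FPKM of Msh6 to Msh3 (left) and of Brca1 to Bard1 (right) in each library; bars start at 0 and each is 1 library. The Msh6 ratio runs from 12.5 to 17.3, and the Brca1 ratio is 0.457 in young WT and between 0.584 and 0.615 in the others.

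Brca2 (ENSMUSG00000041147, chromosome 5, 150522630 to 150570329) stood at 4.19 and 4.39 in young WT and KO and at 4.48 and 3.83 in old WT and KO. Old KO was the lowest and the other libraries lay between 4.19 and 4.48, with an old ratio of 0.854 (0.672 to 1.08) and a young ratio of 1.05 (0.765 to 1.45). The small positive difference in young cells, 0.05, became -0.04 without scaling. Palb2, which bridges Brca1 and Brca2, stood at 2.80, 3.19, 3.0 and 2.98. Psip1 stood at 16.4 and 16.3 in young and at 17.3 and 13.0 in old WT and KO.

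Atm (ENSMUSG00000034218, chromosome 9, 53439149 to 53536740) stood at 19.9 and 19.2 in young WT and KO and at 18.0 and 16.1 in old WT and KO. KO was lower at both ages, by -0.05 and -0.15, with ratios of 0.961 (0.830 to 1.11) and 0.894 (0.797 to 1.0). With the rescaling without antigen receptor segments the old ratio was 0.833 (0.743 to 0.934). Under it Atm was at -0.25 in old KO against WT, and the median of all genes was at -0.09. The sensor complex that activates Atm at breaks did not share one direction. Mre11a stood at 13.9, 13.1, 13.1 and 11.5, Rad50 at 11.3, 11.4, 13.8 and 16.3, and Nbn at 10.1, 9.41, 13.2 and 12.5.

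Trp53bp1 (ENSMUSG00000043909, chromosome 2, 121193281 to 121271407) stood at 7.40 and 6.49 in young WT and KO and at 6.09 and 6.42 in old WT and KO. Young WT was the highest and the other libraries lay between 6.09 and 6.49. The KO ratio was 0.876 in young (0.680 to 1.12) and 1.05 in old cells (0.869 to 1.27). The old difference of 0.07 became -0.02 with the rescaling without antigen receptor segments. Rif1, the effector that 53BP1 recruits, stood at 15.5, 18.3, 13.9 and 13.1, and Rnf168, which writes the histone ubiquitin that 53BP1 binds, at 7.10, 6.76, 8.47 and 8.34. Where the genes overlap others, reads may be shared, since whether counting used strand was not stated in the labels. The Trp53bp1 locus overlaps Tubgcp4 by 5490 bases, Brca2 overlaps the predicted gene Gm42531 by 4048, Pms2 overlaps Gm43687 by 5794 and Msh6 overlaps Fbxo11 by 25.

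**Figure D3:**
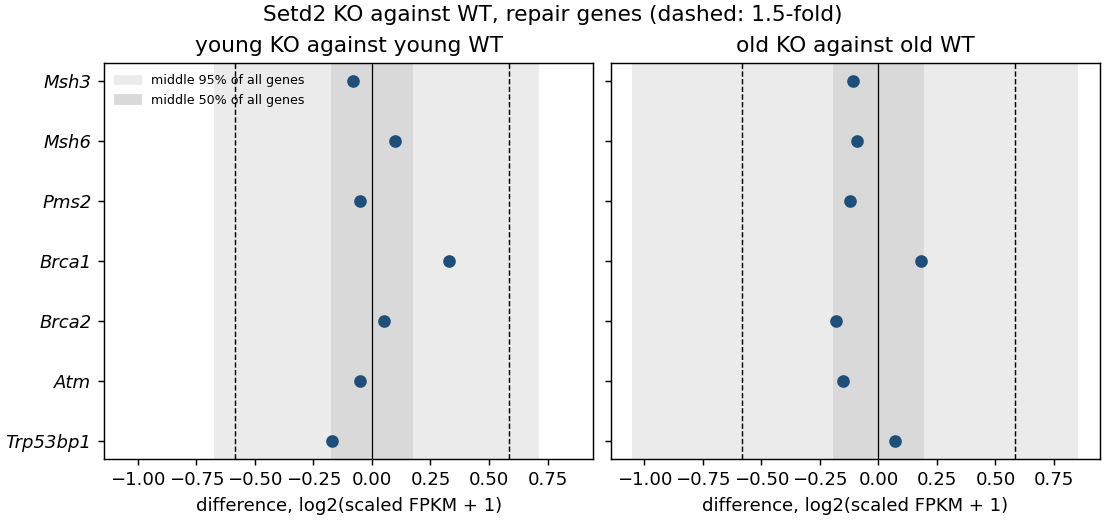
Difference between KO and WT on the log2(scaled FPKM + 1) scale for the 7 repair genes in young (left) and old (right) cells; grey bands hold the middle 50% and 95% of all measured genes and dashed lines mark 1.5-fold. The 7 genes lie between -0.18 and 0.33, inside the middle 95% of all genes.

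Of the 7 genes, 3 were above 0 and 4 below in young KO, where 50.5% and 49.5% of all genes were, and 2 above and 5 below in old KO, where 50.3% and 49.7% were. Brca1 was above 0 at both ages. Msh3, Pms2 and Atm were below 0 at both, as were 25.3% of all genes. Msh6, Brca2 and Trp53bp1 had opposite signs at the 2 ages, as did 48.5% of all genes. For Msh6 and Brca2 the sign in young cells depended on scaling, and for Trp53bp1 that in old cells did. Whether the effect of KO differed between the ages was not tested.

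The wider repair pathways were read from 6 lists that hold 123 genes found in the files, the 7 included. In young KO, 0 of 121 measured differed by 2-fold on the log2(scaled FPKM + 1) scale, 0 were 1.5-fold higher and 1 was 1.5-fold lower, where 4.13% and 3.64% of all genes were. The gene was Pold4, an accessory subunit of DNA polymerase delta, with values of 8.63 and 5.08 in WT and KO. As plain ratios, of the list genes named here, Nhej1 (0.656) and Setd8 (0.661) were also more than 1.5-fold lower and Faap24 (1.55) higher. In old KO, 4 of 122 were 1.5-fold higher on the log2 scale and 2 were lower, against 5.51% and 6.48% of all genes. As plain ratios, of the list genes named here, Rad51b (0.654), Xrcc2 (0.652), Aplf (0.624) and Lig4 (0.565) were also more than 1.5-fold lower. With a pseudocount of 0.1, 11 list genes passed 1.5-fold in old KO, so the genes named are not all of them. Of the further list genes named below, Fancl (1.48) and Rad9a (1.46) came nearest on the higher side. The median over the measured list genes was 0.00 in young and -0.02 in old cells. On the log2 scale the lists thus held a smaller share past 1.5-fold than all genes did, 0.826% in young and 4.92% in old cells. That is a description of the lists and not a test.

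The genes of old KO past 1.5-fold on the log2(scaled FPKM + 1) scale came from several steps. Setd8, which places a single methyl group on lysine 20 of histone H4, stood at 6.41 and 4.24 in young WT and KO and at 3.41 and 9.62 in old WT and KO. Old WT was thus its lowest library and old KO its highest. Suv420h2, which adds further methyl groups to the same lysine, stood at 3.83 and 7.54 in old and at 6.65 and 6.58 in young cells. For Suv420h2 the old WT library was therefore the low one. The same held for Fignl1, a recombination factor, at 1.78 and 5.64 in old and 5.98 and 4.93 in young cells, and for the recombination gene Xrcc3, at 2.23 and 4.07 in old and 4.54 and 5.67 in young cells. Old WT was the high library for Xrcc5, which encodes Ku80 of end joining, at 15.0 and 6.62 in old and 9.64 and 8.96 in young cells. It was also the high one for Rpa1, the largest subunit of the single-strand binding protein, at 21.9 and 13.1 in old and 13.4 and 13.3 in young cells. Old WT is also the library with 2306 of summed plasma cell markers, and their part in these values was not tested.

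**Figure D4:**
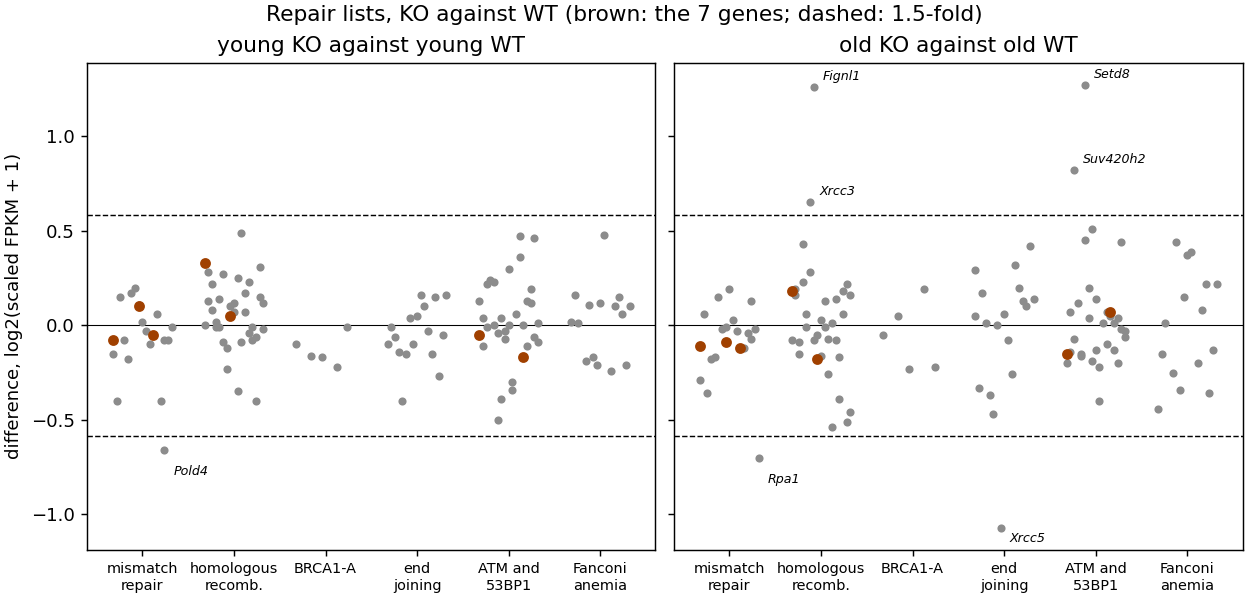
Difference between KO and WT on the log2(scaled FPKM + 1) scale of every measured gene of 6 repair lists in young (left) and old (right) cells, with the 7 repair genes in brown and dashed lines at 1.5-fold; some genes are in more than 1 list. Genes past 1.5-fold are named: 1 in young cells and 6 in old cells.

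Of 20 mismatch repair genes, 13 were below 0 in young and 15 in old KO, with medians of -0.06 at both ages. Over all measured genes, 49.5% and 49.7% were below 0. Without scaling the median of all genes was -0.10 in young KO, so signs this near 0 can depend on scaling. Besides those named above, the nuclease Exo1 stood at 6.66 and 4.81 in young and 5.49 and 5.78 in old WT and KO, and Rpa3 at 9.80 and 7.17 and at 8.90 and 8.61. Rpa2 stood at 19.0, 22.0, 17.5 and 17.3. The clamp loader subunit Rfc4 stood at 15.7 and 12.1 and the polymerase delta subunit Pold2 at 16.0 and 12.9 in old WT and KO. Of 34 homologous recombination genes, 20 were above 0 in young and 17 in old KO, with medians of 0.07 and 0.00. Among all measured genes, 50.5% and 50.3% were above 0. The helicase gene Wrn stood at 19.1 and 27.2 in young and at 23.6 and 19.6 in old WT and KO, with opposite directions. Mcm9 stood at 8.89 and 6.74 in young cells, and the recombination genes Rad51b (9.30, 6.08) and Xrcc2 (5.63, 3.67) were lower in old KO.

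The BRCA1-A complex binds ubiquitin at breaks and restrains resection. All 5 of its genes were below 0 in young KO, at a median of -0.16, and 3 of 5 in old KO, at -0.05. Over all measured genes, 49.5% and 49.7% were below 0. Each of the 5 genes was within counting error at both ages at the assumed 2 kb, and Brcc3 was at -0.01 in young KO. The signs thus show no difference particular to the complex. Fam175a, the scaffold of the complex, stood at 5.12 and 4.45 in young and 4.85 and 3.98 in old WT and KO. Bre stood at 6.37, 5.34, 5.79 and 6.76, and Babam1 at 30.8, 27.4, 27.4 and 28.5. The ubiquitin-binding subunit Uimc1 stood at 5.90, 5.42, 5.75 and 5.53 and the deubiquitinase Brcc3 at 2.37, 2.33, 2.89 and 2.33.

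End joining genes had medians of -0.05 over 17 in young and 0.06 over 18 in old cells. Nhej1, which aligns the ends for ligation, stood at 2.46 and 1.61 in young and 2.14 and 2.93 in old WT and KO. Xrcc6, the Ku70 gene and partner of Xrcc5, stood at 8.54, 6.92, 9.95 and 10.8, and so did not share the high old WT value of Xrcc5. In old WT and KO, the end-processing factor Aplf stood at 2.86 and 1.79, the gap-filling polymerase Poll at 8.58 and 11.8, and the ligase Lig4 at 1.09 and 0.614, close to the lowest level listed. Their young values differed less, at 2.95 and 2.81, at 9.59 and 9.99, and at 0.642 and 0.675. Tdp2 stood at 18.5, 20.8, 19.4 and 21.5, and Polq, the polymerase of microhomology-mediated joining, at 4.79, 5.46, 5.27 and 5.26. The 32 genes of Atm signalling and the 53BP1 pathway had medians of 0.00 and -0.01. The checkpoint kinase gene Chek2 stood at 9.44 and 13.4 in young and 9.04 and 9.52 in old WT and KO. Dynll1, a 53BP1-binding light chain, was higher in KO at both ages, at 4.61 and 6.72 and at 7.89 and 11.1. H2afx, the histone that Atm phosphorylates, stood at 123, 120, 125 and 171. The checkpoint clamp gene Rad9a stood at 18.1, 17.2, 12.3 and 18.0, with old WT the low library, and the shieldin gene Fam35a at 6.21, 4.52, 5.31 and 5.48. The 15 Fanconi anemia genes, which act on crosslinks, had medians of 0.06 and 0.01 and none past 1.5-fold at either age on the log2(scaled FPKM + 1) scale. Faap24 came nearest in young cells, at 2.50 and 3.86, a plain ratio of 1.55, and Fanca (9.0, 6.36) and Fancl (2.82, 4.16) in old cells. Fancg stood at 5.01, 5.55, 3.41 and 4.72, Fance at 2.74, 2.16, 2.75 and 2.26, Fancb at 3.19, 2.61, 2.46 and 2.84, and Fanci at 8.58, 7.29, 8.12 and 7.35.

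The old libraries were compared with the young ones within each genotype. These pairs also differ in other ways: the X-inactivation RNA Xist was listed in neither young library but in both old ones, with values of 291 in WT and 279 in KO, so age and the sex of the mice cannot be told apart. Both comparisons use the libraries of the KO comparisons. None of the 7 genes differed by 2-fold or 1.5-fold. Among all genes, 5.55% in WT and 7.19% in KO did so by 2-fold, and 15.8% and 20.4% by 1.5-fold. With only 7 genes, a count of 0 beside these shares shows nothing particular to the group. In WT, 2 of 7 were higher and 5 lower in the old library, where 49.2% and 50.8% of all genes were. In KO 0 of 7 were higher and 7 lower, where 49.8% and 50.2% were. The KO differences ran from -0.01 for Trp53bp1 to -0.23 for Msh3 and Atm. For Atm the old KO value was 0.842 times the young KO value (0.735 to 0.966). For Msh6 the old WT value was 1.11 times the young WT value (1.03 to 1.20). The share of all genes whose interval excluded 1 was not counted here either. The interval of Msh6 included 1 under each of the 3 other scalings, at 1.03, 1.02 and 1.02. Under the same 3, the intervals of 2 other genes excluded 1 in WT: Atm at 0.836, 0.832 and 0.834, and Trp53bp1 at 0.760, 0.756 and 0.758. In KO, Atm kept an interval below 1 under all 4 scalings. With the rescaling without antigen receptor segments those of Msh3 (0.701), Msh6 (0.840) and Brca1 (0.758) did so too, and with upper-quartile scaling those of Msh6 (0.915) and Brca1 (0.826). These scalings lower the median of all genes as well, to -0.11 in WT under each and in KO to -0.18 with the rescaling and -0.08 with upper-quartile scaling. The small old-to-young difference of Brca2 in WT, 0.08, became -0.02 under the same 3.

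Msh3, Pms2 and Atm had their 4 libraries in the same order, from high to low: WT then KO of the young, then WT then KO of the old. This pattern was noticed in the values. It held for 7.07% of all genes, and for these 3 it held also without scaling and with upper-quartile scaling, where 11.1% of all genes showed it. With the rescaling without antigen receptor segments it held for these 3 and Trp53bp1, and for 13.9% of all genes.

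For Pms2, Brca1 and Atm a protein-coding gene starts beside them, head to head within 2 kb, in the RefSeq annotation of GRCm38.p6 (the mm10 build). Among 17492 protein-coding genes with a known strand, 11.6% had such a partner. For Pms2 the partner is Aimp2, a scaffold of tRNA synthetases, for Brca1 it is Nbr1, an autophagy receptor, and for Atm it is Npat, an activator of histone genes. The bases between the starts of each pair are shown because each short stretch lies between the starts of both genes. They come from RefSeq and read 5′ to 3′ on the strand of the repair gene, with capitals for a CCAAT box (CCAAT or its complement ATTGG) and a GC box (GGGCGG).
Pms2 and Aimp2, chr5:143909840-143909900, plus strand: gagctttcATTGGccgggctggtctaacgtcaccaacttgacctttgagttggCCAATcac
Brca1 and Nbr1, chr11:101551956-101552106, minus strand: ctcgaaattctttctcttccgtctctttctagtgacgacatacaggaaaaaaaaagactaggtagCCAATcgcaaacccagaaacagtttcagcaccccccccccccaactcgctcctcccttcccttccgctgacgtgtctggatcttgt
Atm and Npat, chr9:53536829-53536888, minus strand: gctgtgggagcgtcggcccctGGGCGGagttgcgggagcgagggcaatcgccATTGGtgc

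The stretches are 61, 151 and 60 bases long and 52.5%, 50.3% and 71.7% G or C. Each holds at least 1 CCAAT box, and the one of Pms2 holds 2, one on each strand. Over the full promoter windows of 300 bases, from 250 before to 50 after the annotated start, 4 of the 7 genes had CCAAT on either strand (Atm, Brca1, Msh6 and Pms2), as had 37.4% of all 32851 windows. A GC box was in 5 of 7 and in 35.7% of all. An E2F site, searched as TTTCCCGC, TTTGGCGC, TTTCGCGC or TTTGCCGC on both strands, was in 3 of 7 (Brca2, Msh3 and Msh6) and in 2.26% of all. The cAMP response element TGACGTCA was in Brca2 alone and in 1.79% of all, and neither the NRF1 motif nor TTTGAA was in any of the 7. The windows of the 7 genes were 53.7% (Brca1) to 71.7% (Msh6) G or C, all above the median of 52.7% over all windows. The shares over all windows are not matched for this. A GC box can overlap a CCAAT or E2F match, and a match is a run of letters, not a measured site.

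The partners shared the order of the repair genes only in part. Aimp2 stood at 9.14, 8.47, 7.48 and 8.24 and was lowest in old WT, where Pms2 was lowest in old KO. Nbr1 stood at 8.46, 10.4, 9.30 and 8.99, so it was higher in young KO as Brca1 was, at a ratio of 1.24 (0.998 to 1.53), and not in old KO, at 0.966 (0.826 to 1.13). Npat stood at 14.9, 15.1, 15.2 and 12.5 and, like Atm, was lowest in old KO.

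**Figure D5:**
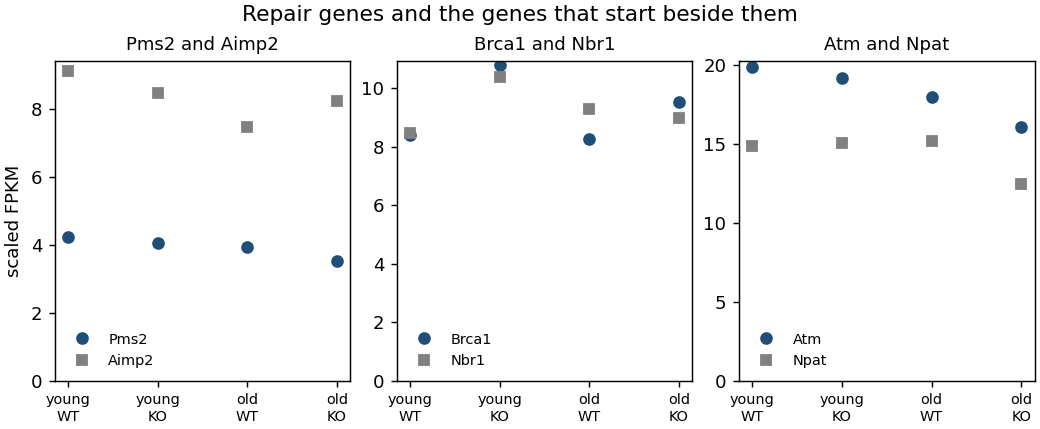
Scaled FPKM in the 4 libraries of 3 repair genes (circles) and the gene that starts beside each (squares); axes start at 0 and each point is 1 library. Brca1 and Nbr1 both peak in young KO, at 10.8 and 10.4, and Atm and Npat are both lowest in old KO, at 16.1 and 12.5.

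The repair or S phase genes most like each of the 7 were found by the distance between log2 profiles centred over the 4 libraries, among 158 candidates. With only 4 libraries and small differences, this says which genes were about as flat and no more. Msh3 was nearest to Atm (distance 0.05) and Pold1 (0.07), and Atm to Atr (0.03), the kinase of stalled replication, and Msh3 (0.05). Pms2 was nearest to Tdp1 and Mre11a, both at 0.04, Msh6 to Pold3 (0.06) and Mcm10 (0.07), and Brca2 to Prim1 (0.03) and Usp28 (0.05). Brca1 was nearest to the nuclease gene Eme1 (0.05), at 4.42, 5.58, 4.37 and 4.98, and to Nudt16l1 (0.06), whose product binds 53BP1, at 22.7, 28.1, 23.1 and 25.5. Trp53bp1 was nearest to Fancb and Babam1, both at 0.08.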

How the data were processed

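RNA of 4 samples was analysed; the 2 bisulfite samples were not analysed here. The authors' deposited files give 1 FPKM per gene, per the file headers, and list only genes at 0.5 or more. The submitters' processing notes name mm10 (GRCm38), HISAT2 2.0.4, StringTie 1.3.0, Trimmomatic, FastQC and CASAVA but not what each did; strand use in counting: not given in the sources used here. Per the labels' protocols, each library used 100 ng total RNA and a kit for total RNA.

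Of 14468 gene identifiers, 14382 matched a table of symbols and 18 date-like symbols were repaired with it. The 13 symbols on several rows had their values added. Unlisted genes were set to 0.5. Libraries were scaled by median-of-ratios over 10935 genes at 1 or more in all 4, with multipliers of 0.940 for young WT and 1.02 for each other library. A gene counted as measured if either library of a comparison reached 1, and log2 differences used a pseudocount of 1. Counted units came from the spacing of FPKM times length of loci under 1500 bp, of which 62.1% to 71.1% lay within 0.02 steps of a whole multiple. In young libraries the step was about 2 times that of old ones (0.1045 and 0.1106 against 0.0560 and 0.0554), so the depths rest on taking that spacing as 1 unit. Ratio intervals are exact conditional (Clopper-Pearson) at 95%, for counting error only.

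Some genes of the lists and beside the members are not reported here and were left out of the lists. The members and lists were chosen with earlier results of these data known. Named genes were the 7, the up to 4 largest differences of each repair list in each KO comparison, genes starting within 2 kb head to head, the 2 nearest profiles, and Setd2, Kit, Ly6a, Jchain, Mki67 and Pcna; further ones are said to be chosen after seeing values. Start regions and promoter windows are from RefSeq (GRCm38.p6). Calling was tested on simulated data. Other pseudocounts, scalings and filters were tried. Python 3.11.15, numpy 2.4.6, pandas 2.3.3 and scipy 1.17.1 were used.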

Additional observations from a re-analysis of the deposited data

Results flagged for a closer look

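Of the 7 genes and the list genes named with them, 2 differed from WT beyond counting error (at an assumed 2 kb) in opposite directions at the 2 ages. Most of these list genes were named for large differences in the same data, so an interval that excludes 1 was likely for them. The share of all genes with such opposite directions was not counted. The 2 genes are therefore a description and not a result about repair genes. Setd8 was lower in young KO and higher in old KO, at -0.50 and 1.27 on the log2 scale, so the old difference exceeded the young one by 1.77. The old WT value of Setd8, 3.41, was the lowest of its libraries. Wrn had the reverse directions, at 0.49 and -0.26, which differ by -0.75. Each age has 1 library per genotype, and the difference between the ages was not tested.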

How the results depend on the processing

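No member reached 1.5-fold in any comparison under any of the 8 alternatives. The number of repair list genes past 1.5-fold moved more. It was 1 in young KO against WT and became 3 with a pseudocount of 0.1, 0 with a pseudocount of 5 and 2 without scaling. In old KO against WT it was 6 and became 11 and 3 with those pseudocounts. In old against young WT it was 10 and became 2 with a pseudocount of 5 and 6 without scaling, with upper-quartile scaling (also 6) and when rescaled without antigen receptor segments, Gm26917 and Gm42418 (also 6). In old against young KO it was 6 and became 10 and 3 with the pseudocounts and 13 with that rescaling. The cause was not tested. That rescaling put the median of all genes at -0.18 in old against young KO, where Atm was at -0.44 and Msh6 at -0.25, and no scaling put it at -0.11 in old against young WT. Of the 212 values of single genes under an alternative, 6 changed sign, all of members within 0.10 of 0. Unlisted genes at 0 was chosen after seeing the data. The filter at 5 left 4 of the 7 genes measured. No paired analysis was possible because each group has 1 library and the labels give no replicate numbers, and no library could be left out. At the assumed 2 kb, the ratio intervals of Msh3, Pms2 and Brca2 span over 20% on either side. So does that of Trp53bp1 in young KO against WT, at 0.680 to 1.12 around 0.876. The same length was assumed for every gene, so which genes depth limits most cannot be read from these widths.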
